A study of Homo sapiens with 14 samples.

Results

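Human cytosolic tRNAs that carry arginine fall into 5 isoacceptors, named by the anticodon of their genes: tRNA-Arg-ACG, tRNA-Arg-CCG, tRNA-Arg-CCT, tRNA-Arg-TCG and tRNA-Arg-TCT. Here they were followed in cDNA counts of RNA crosslinked to TRMT2A. The members were the clusters that the study types as tRNA and names tRNA-Arg, which formed 14 loci from 26 clusters once clusters less than 40 nt apart were joined. The study lists 248 tRNA loci by the same rule and 316 loci of all types. Its list keeps only sites with 5 or more counts in 3 or more of its 5 experiments. The members were thus chosen by counts of these same libraries, and shares and ranks below cover listed loci only. tRNA-Arg-ACG had 2 listed loci and each of the other isoacceptors had 3. The whole gene sequence occurred 4 times in the genome for tRNA-Arg-ACG-2-1 and 3 times for tRNA-Arg-ACG-1-1, so further copies are not listed.

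The study compared 3 ways of fixing TRMT2A to its RNA. In FICC-Seq, HEK293 or HAP1 cells were given 100 µM 5-fluorouracil (5FU) for 24 h and endogenous TRMT2A was precipitated, with 3 libraries per cell line. In iCLIP, endogenous TRMT2A was joined to RNA by UV light and precipitated with the same antibody, again with 3 libraries per cell line. In miCLIP, HEK293 cells were transfected with a FLAG-tagged TRMT2A whose catalytic glutamate had been exchanged for alanine, and the tag was precipitated from 2 libraries, so this enzyme was expressed from a plasmid and not at its own level. HEK293 is a human embryonic kidney line and HAP1 a near-haploid human line. No library was labelled as carrying a deletion, and all were labelled as untreated, although the FICC-Seq protocol included 5FU. The study describes the replicates as biological; nothing more was given on whether they came from separate cultures. Cell line markers cannot be read from such libraries, and the line labels were not checked.

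TRMT2A is a methyltransferase that makes methyl-5-uridine at U54, the base that opens the T-loop of most cytosolic tRNAs. During the reaction the enzyme is joined to the base. This bond becomes lasting if the base is 5-fluorouridine or if the enzyme cannot release its product. Reverse transcriptase stops at a crosslinked base. The paper states that a catalytically crosslinked base is more often copied first, so that the methylated base is predicted to follow the called position. Stops also occur at A58 of the T-loop, which is known to carry methyl-1-adenosine. In FICC-Seq and miCLIP a count at position 53 or 54 was therefore read as the stop for U54, and one at 58 as the stop at A58. The paper takes iCLIP to detect binding sites only, so an iCLIP count at 53 or 54 does not mark methylation. Arginine is encoded by several codons, of the CGN and AGR families, and the isoacceptors decode them by different anticodons. The genes of tRNA-Arg-TCT contain an intron that is spliced out of the precursor.

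The gene sequences below show what the isoacceptors share and where they differ, with 1 gene per isoacceptor. They are from GRCh37, the build of the deposited files, on the strand of the gene. Capitals mark the anticodon and positions 53 to 58.
tRNA-Arg-ACG-1-1: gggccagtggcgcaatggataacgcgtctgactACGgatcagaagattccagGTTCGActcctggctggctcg
tRNA-Arg-CCG-1-1: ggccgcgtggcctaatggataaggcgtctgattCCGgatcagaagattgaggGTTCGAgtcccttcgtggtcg
tRNA-Arg-CCT-4-1: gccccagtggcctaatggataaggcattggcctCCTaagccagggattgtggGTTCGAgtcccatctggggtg
tRNA-Arg-TCG-3-1: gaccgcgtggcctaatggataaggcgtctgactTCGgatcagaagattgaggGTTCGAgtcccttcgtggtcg
tRNA-Arg-TCT-3-1: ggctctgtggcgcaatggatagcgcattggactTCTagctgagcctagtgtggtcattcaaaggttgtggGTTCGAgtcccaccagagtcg
These genes lie at chr6:26328368-26328440 (plus strand), chr6:28710729-28710801 (minus), chr7:139025446-139025518 (plus), chr17:73031208-73031280 (plus) and chr9:131102355-131102445 (minus). The T-arm was found in the sequence of all 14 genes, and each mature tRNA was 73 nt long before the added CCA end. The T-loop from position 54 to 60 was ttcgagt in 11 genes, ttcgact in the 2 tRNA-Arg-ACG genes and ttcgaat in tRNA-Arg-TCG-5-1. All 14 hence kept T54 and A58. The introns of the tRNA-Arg-TCT genes were 12 nt in tRNA-Arg-TCT-1-1, 13 nt in tRNA-Arg-TCT-3-2 and 18 nt in tRNA-Arg-TCT-3-1.

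The 3′ parts of the genes, from position 49 to 73, are given for the loci within an isoacceptor that behaved differently below. Capitals mark positions 53, 54 and 58.
tRNA-Arg-CCT-1-1: gtggGTtcgAgtcccacctggggta
tRNA-Arg-CCT-3-1: gtggGTtcgAgtcccacccggggta
tRNA-Arg-CCT-4-1: gtggGTtcgAgtcccatctggggtg
tRNA-Arg-TCG-1-1: gcagGTtcgAgtcctgccgcggtcg
tRNA-Arg-TCG-3-1: gaggGTtcgAgtcccttcgtggtcg
tRNA-Arg-TCG-5-1: gaggGTtcgAatcccttcgtggttg
tRNA-Arg-TCT-1-1: ccggGTtcgAgtcccggcggagtcg
tRNA-Arg-TCT-3-1: gtggGTtcgAgtcccaccagagtcg
In this stretch tRNA-Arg-CCT-4-1 differed from tRNA-Arg-CCT-1-1 at 2 positions, tRNA-Arg-TCG-5-1 from tRNA-Arg-TCG-3-1 at 2, and tRNA-Arg-TCT-1-1 from tRNA-Arg-TCT-3-1 at 5. The 3 tRNA-Arg-CCG genes were identical over their whole length. In the annotation (GENCODE, lifted to GRCh37), tRNA-Arg-CCT-4-1 lay in introns of FMC1 and LUC7L2, and tRNA-Arg-CCT-1-1 (chr17:73030001-73030073) and tRNA-Arg-TCG-3-1 in an intron of KCTD2, on the strand of these genes. tRNA-Arg-TCG-1-1 (chr15:89878304-89878376) lay in an exon of the long non-coding RNA POLG-DT, and tRNA-Arg-TCG-5-1 (chr6:28510891-28510963) in no annotated gene.

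Only reads with a single best place in the genome were counted by the authors, so the sequence of a locus bears on its level. The stretch from 54 to 73, which a read that stopped at U54 would cover, occurred once in the genome for 6 loci: the 3 of tRNA-Arg-CCT, tRNA-Arg-TCG-1-1, tRNA-Arg-TCG-5-1 and tRNA-Arg-TCT-1-1. It occurred 2 times for tRNA-Arg-TCT-3-1 and tRNA-Arg-TCT-3-2, 4 times for the tRNA-Arg-CCG loci and tRNA-Arg-TCG-3-1, and 8 times for both tRNA-Arg-ACG loci. An exact read from these needed between 1 and 3 nt past position 73 to be placed. From 49 to 73 tRNA-Arg-TCG-3-1 was identical to the tRNA-Arg-CCG loci. A read of a U54 stop was thus assigned to one or the other isoacceptor by bases past 73 alone. In a mature tRNA the bases past 73 are those of the added CCA end and not those copied from its gene. Mapping allowed up to 2 mismatches, and whether the counts at these loci came from precursor or mature tRNAs was not tested. The 6 loci with a single copy held 61.8% of the arginine counts in FICC-Seq, 49.9% in iCLIP and 56.1% in miCLIP. The levels of different loci are therefore not a measure of their crosslinking alone, and the part of read placement in them was not tested. Nor can a count tell a less abundant tRNA from one that was bound or captured less.

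The libraries held between 7002 and 104605 counts, the fewest in an iCLIP library and the most in a miCLIP library. Between 81 and 629 of them fell on arginine loci in the FICC-Seq and iCLIP libraries, and 1238 and 3985 in miCLIP. Arginine tRNAs took 2.06%, 2.73% and 2.0% of the tRNA counts in FICC-Seq of HEK293 cells and 1.71%, 2.24% and 1.77% in HAP1 cells. In iCLIP they took 2.19%, 2.76% and 2.73% in HEK293 and 2.42%, 2.7% and 1.74% in HAP1 cells, and in miCLIP 5.71% and 6.58%. The miCLIP libraries were thus the 2 highest of the 14, and those of FICC-Seq and iCLIP overlapped. A count of 0 allows up to 3 counts, which is 428 CPM (counts scaled to a library total of 1e6) in the smallest library and 28.7 CPM in the largest. Intervals and such limits cover counting error only.

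The mean shares of the isoacceptors had the same order in FICC-Seq and iCLIP and another order in miCLIP. In the 6 FICC-Seq libraries tRNA-Arg-CCT led with 59.2% ± 5.02 (SD, n = 6) of the arginine counts, and its lowest library, at 54.1%, was above the highest of any other isoacceptor. tRNA-Arg-CCG followed with 23.0% ± 4.22, tRNA-Arg-TCG with 11.1% ± 3.16 and tRNA-Arg-TCT with 6.46% ± 0.816. The ranges of neighbours in this middle group overlapped, although the order was the same in each of the 6 libraries. tRNA-Arg-ACG was last at 0.302% ± 0.394, and no library exceeded 0.802%.

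In iCLIP the first 3 isoacceptors were close: tRNA-Arg-CCT had 32.6% ± 2.81 (SD, n = 6), tRNA-Arg-CCG 31.5% ± 5.15 and tRNA-Arg-TCG 24.9% ± 3.79, each overlapping the next. tRNA-Arg-TCT had 6.24% ± 1.46 and tRNA-Arg-ACG 4.8% ± 1.89, which overlapped too. In miCLIP tRNA-Arg-TCG came first with 29.9% ± 4.11 (SD, n = 2), before tRNA-Arg-CCT with 24.0% ± 1.6, tRNA-Arg-CCG with 20.1% ± 0.379, tRNA-Arg-TCT with 15.2% ± 1.91 and tRNA-Arg-ACG with 10.9% ± 0.981. No neighbours overlapped in miCLIP, but there were only 2 libraries. Among the 48 anticodon groups of tRNA, tRNA-Arg-CCT ranked 21 by mean CPM in FICC-Seq but 28 in iCLIP, while tRNA-Arg-ACG ranked 45 in both.

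**Figure D1:**
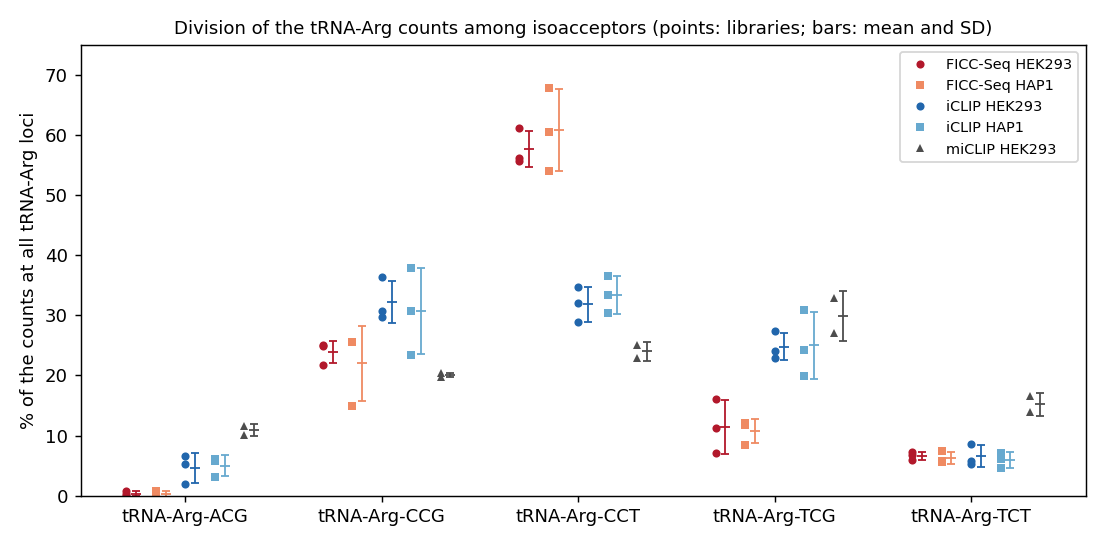
Share of all tRNA-Arg counts (y axis, percent) taken by each isoacceptor (x axis), with 1 point per library and bars for the mean and SD of each group. tRNA-Arg-CCT lies between 54.1% and 67.7% in FICC-Seq and at most at 36.5% in iCLIP and 25.1% in miCLIP, and tRNA-Arg-ACG is at most at 0.802% in FICC-Seq.

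tRNA-Arg-CCT, which reads the AGG codon, was the isoacceptor with the highest FICC-Seq level, and most of this came from 1 locus, with 1480 of 1659 counts. This locus, tRNA-Arg-CCT-4-1, held 207, 182 and 269 counts in FICC-Seq of HEK293 and 236, 284 and 302 in HAP1 cells. In iCLIP it held 43, 22 and 26 in HEK293 and 23, 31 and 21 in HAP1, and in miCLIP 150 and 358. As CPM over the libraries of a method, the FICC-Seq level was 8560 and the iCLIP level 2730, a ratio of 3.14 (95% interval 2.67 to 3.71), and every FICC-Seq library was above every iCLIP and miCLIP library. It ranked 29 of 248 tRNA loci in FICC-Seq. tRNA-Arg-CCT-1-1 held 15, 23 and 12 counts in HEK293 and 20, 49 and 33 in HAP1 FICC-Seq, against 12, 14 and 8 and then 16, 23 and 6 in iCLIP and 88 and 319 in miCLIP. tRNA-Arg-CCT-3-1 was low before miCLIP, with 2 to 7 counts in the FICC-Seq libraries, 0 to 3 in iCLIP, and 73 and 234 in miCLIP.

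tRNA-Arg-ACG, whose first anticodon base is known to be edited to inosine so that it reads several CGN codons, was nearly without FICC-Seq counts. Its 2 loci together held 0, 3 and 1 counts in HEK293 and 0, 5 and 0 in HAP1 FICC-Seq. In iCLIP they held 9, 9 and 2 and then 4, 9 and 5, from libraries that were less deep. In miCLIP they held 143 and 405. This was 52.1 CPM in FICC-Seq against 624 CPM in iCLIP, a ratio of 0.0834 (interval 0.0355 to 0.176), and the lowest iCLIP library, at 286 CPM, was above the highest of FICC-Seq, at 188 CPM. The limit of detection in FICC-Seq was between 77.0 and 188 CPM, so 0 counts there do not mean that the tRNA was not linked at all. Both loci were low in FICC-Seq, with totals of 5 for tRNA-Arg-ACG-1-1 and 4 for tRNA-Arg-ACG-2-1. In tRNA-Arg-ACG-1-1, 4 of these lay at position 54. In tRNA-Arg-ACG-2-1, 3 lay at position −6, upstream of the gene, so not all of these counts were within the tRNA.

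The 3 loci of tRNA-Arg-TCG, which reads the CGA codon, differed from each other. tRNA-Arg-TCG-3-1 held 54, 32 and 26 counts in HEK293 and 45, 66 and 35 in HAP1 FICC-Seq, and 12 to 20 in each iCLIP library. tRNA-Arg-TCG-5-1 held 9, 7 and 3 and then 0, 4 and 3 in FICC-Seq, but 22, 14 and 7 and then 7, 12 and 8 in the less deep iCLIP libraries. tRNA-Arg-TCG-1-1 held 0 to 9 counts in FICC-Seq and 3 to 13 in iCLIP. The order turned round in miCLIP, where tRNA-Arg-TCG-1-1 led with 134 and 576 counts, tRNA-Arg-TCG-5-1 had 127 and 411, and tRNA-Arg-TCG-3-1 had 73 and 320. tRNA-Arg-TCG-1-1 ranked 200 of 248 tRNA loci in FICC-Seq and 25 in miCLIP.

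In tRNA-Arg-TCT, which reads the AGA codon, the locus with the most FICC-Seq counts was tRNA-Arg-TCT-3-1, with 18, 21 and 22 in HEK293 and 17, 24 and 20 in HAP1 cells. It held 0 to 4 counts in each iCLIP library, and 42 and 174 in miCLIP. tRNA-Arg-TCT-1-1 had 1 to 16 in FICC-Seq, 1 to 8 in iCLIP, and 149 and 309 in miCLIP. tRNA-Arg-TCT-3-2, whose mature sequence is identical to that of tRNA-Arg-TCT-3-1, held 2 to 7, 1 to 4, and 14 and 69. The 3 identical tRNA-Arg-CCG genes, which read the CGG codon, also had unequal counts. tRNA-Arg-CCG-1-3 held 380 in all FICC-Seq libraries, tRNA-Arg-CCG-1-1 203 and tRNA-Arg-CCG-1-2 76, whereas in miCLIP the 3 held 358, 345 and 352. Loci with identical mature tRNAs were told apart only by bases past position 73, so how reads were split among them is uncertain. Reads from position 49 to 73 also had the same tRNA sequence in tRNA-Arg-TCG-3-1 and the tRNA-Arg-CCG loci. As tRNA-Arg-TCG-3-1 held 258 of the 308 FICC-Seq counts of tRNA-Arg-TCG, the split between these isoacceptors is uncertain too.

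**Figure D2:**
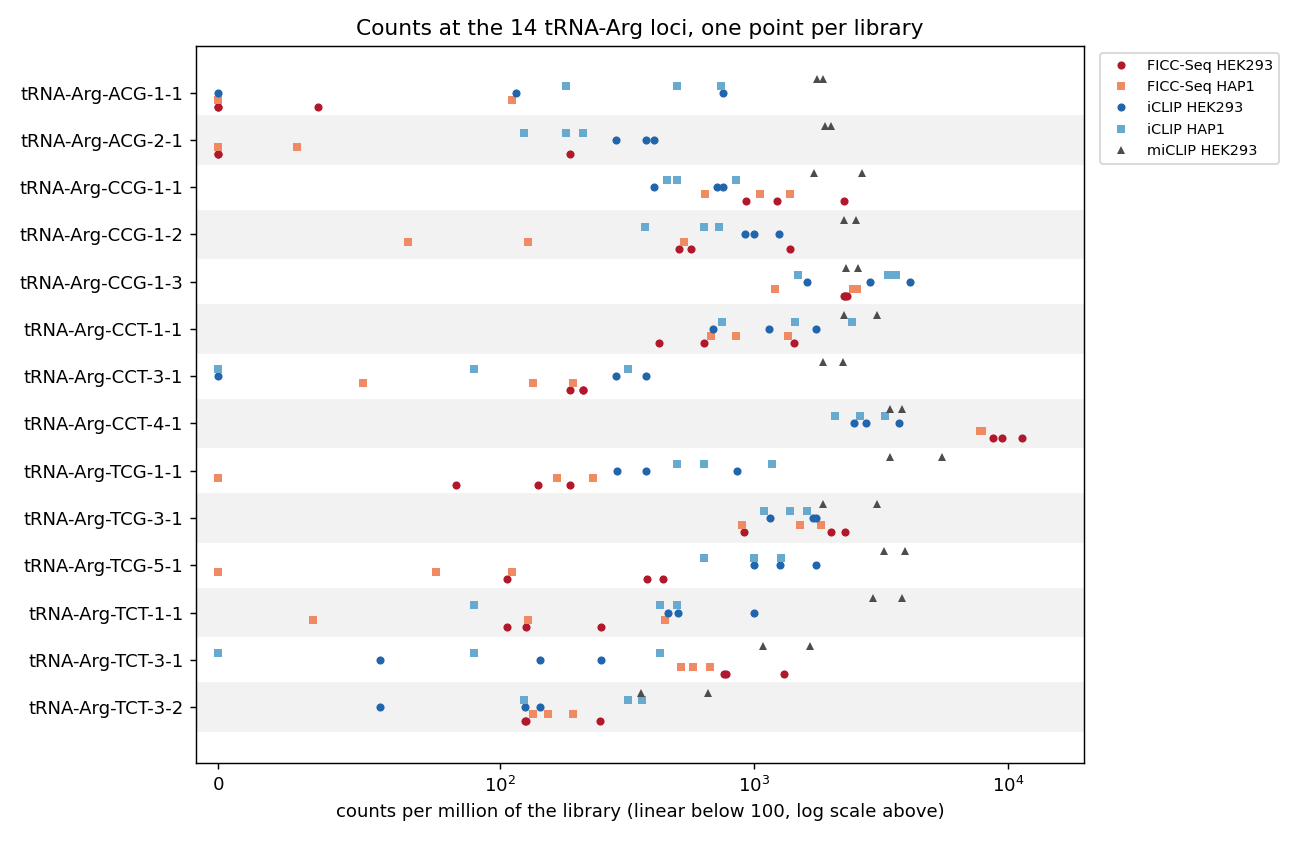
Level of each of the 14 tRNA-Arg loci (y axis) in CPM (x axis, linear below 100 and on a log scale above), with 1 point per library, coloured by method and cell line. tRNA-Arg-CCT-4-1 has all FICC-Seq points above those of the other methods, and the tRNA-Arg-ACG loci have FICC-Seq points at or near 0 and miCLIP points highest.

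The first comparison asked which arginine loci were higher or lower in FICC-Seq than in iCLIP, which used the same antibody, over both cell lines. tRNA-Arg-CCT-4-1 was higher in FICC-Seq, and so was tRNA-Arg-TCT-3-1. Both tRNA-Arg-ACG loci, tRNA-Arg-TCG-1-1, tRNA-Arg-TCG-5-1, tRNA-Arg-TCT-1-1, tRNA-Arg-CCT-1-1, tRNA-Arg-CCG-1-2 and tRNA-Arg-CCG-1-3 were lower. Levels were fitted on the log2 scale with limma after voom, for the 264 of 316 loci that passed a filter on low counts, of which 13 were arginine loci. tRNA-Arg-TCT-3-2 did not pass. Of the 13, 2 passed as higher and 8 as lower at an adjusted p under 0.05, and of all loci tested 24.6% passed as higher and 36.4% as lower. The median difference was −1.37 for the arginine loci and −0.193 for all loci. All but tRNA-Arg-CCT-3-1 and tRNA-Arg-ACG-2-1 passed the filter also without the miCLIP libraries, and of these 11 loci 2 were called higher and 7 lower. In this smaller set tRNA-Arg-ACG-1-1, tRNA-Arg-TCG-1-1, tRNA-Arg-TCG-5-1 and tRNA-Arg-TCT-1-1 passed only through iCLIP libraries, where they were higher. Their highest FICC-Seq libraries held 111, 231, 438 and 444 CPM, under the level of the filter. tRNA-Arg-TCT-3-1 passed only through FICC-Seq, with at most 425 CPM in iCLIP. The filter thus fixed the direction of these calls, and the smaller set is no check of them.

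The sizes ranged widely. tRNA-Arg-CCT-4-1 differed by 0.97 ± 0.17 (SE) on the log2 scale (limma, adjusted p = 0.000129), with 0.86 in HEK293 and 1.07 in HAP1 cells. tRNA-Arg-TCT-3-1 differed by 1.44 ± 0.45 (limma, adjusted p = 0.0103), but did not pass in either cell line alone, nor without FICC-Seq HEK293 replicate 3, FICC-Seq HAP1 replicate 1 or iCLIP HAP1 replicate 3, where its adjusted p in limma was 0.0584, 0.0504 and 0.0645. tRNA-Arg-TCG-5-1 differed by −3.89 ± 0.47 (limma, adjusted p = 2.52e-06) and tRNA-Arg-TCG-1-1 by −3.02 ± 0.61 (limma, adjusted p = 0.000361). The 2 tRNA-Arg-ACG loci differed by −4.0 and −4.02, values that rest on 9 FICC-Seq counts and depend on the offset that voom adds. The other 4 loci called lower lay between −2.2 for tRNA-Arg-TCT-1-1 and −1.02 for tRNA-Arg-CCG-1-3. tRNA-Arg-CCG-1-1 at 0.21, tRNA-Arg-CCT-3-1 at −0.55 and tRNA-Arg-TCG-3-1 at −0.67 did not pass. tRNA-Arg-TCG-3-1 was near the threshold: it was called lower in 7 of 23 alternatives, at −0.82 with median-of-ratios size factors (limma, adjusted p = 0.0334), without voom weights, and without FICC-Seq HEK293 replicate 1, FICC-Seq HAP1 replicate 1 or 2, or miCLIP replicate 1 or 2, with the lowest adjusted p in limma, 0.00842, without FICC-Seq HAP1 replicate 2.

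These differences are relative to the scaling of the libraries. The trimmed mean of M values (TMM) multiplied the totals by 1.14 to 1.58 in FICC-Seq and by 0.535 to 1.06 in iCLIP. With totals alone, the median over all loci moved from −0.193 to 0.47, and 38.3% of all loci passed as higher and 28% as lower. The calls of tRNA-Arg-CCG-1-3 (−0.24, limma, adjusted p = 0.47) and tRNA-Arg-CCT-1-1 (−0.63, limma, adjusted p = 0.172) were then lost, leaving 6 lower and 2 higher. Between 75.5% and 85.6% of FICC-Seq counts and at most 61.4% of iCLIP counts lay on tRNA. With scaling to the tRNA sum the median over all loci was −0.105, and 2 arginine loci passed as higher and 8 as lower. Of all loci 25.8% then passed as higher and 36% as lower. How far the tRNA share shaped the TMM factors was not tested.

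Summed to isoacceptors and fitted with all other anticodons and non-tRNA loci as 80 features, tRNA-Arg-CCT was higher in FICC-Seq by 0.84 ± 0.24 (SE; limma, adjusted p = 0.00498). tRNA-Arg-TCG was lower, at −1.24 ± 0.39 (limma, adjusted p = 0.0091), and so was tRNA-Arg-ACG, at −4.18 ± 0.67 (limma, adjusted p = 2.06e-05). The tRNA-Arg-ACG value rests on 9 FICC-Seq counts and depends on the offset that voom adds. Its highest FICC-Seq library, at 188 CPM, was under the level of the filter. It thus passed only through iCLIP and miCLIP libraries, where it was higher, and the filter fixed the direction of this call. tRNA-Arg-CCG at −0.47 ± 0.32 (limma, adjusted p = 0.202) and tRNA-Arg-TCT at −0.01 ± 0.41 (limma, adjusted p = 0.989) did not pass. tRNA-Arg-CCG was called lower with median-of-ratios size factors, at −0.78 (limma, adjusted p = 0.0126), and with scaling to the tRNA sum, at −0.67 (limma, adjusted p = 0.044), which made 3 isoacceptors lower. Among the 80 features 30.0% passed as higher and 36.2% as lower. The difference between cell lines in this contrast was tested as an interaction. None of the 13 loci or 5 isoacceptors passed in limma, and 0 had an unadjusted p under 0.05, the smallest being 0.181 for a locus and 0.486 for an isoacceptor.

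**Figure D3:**
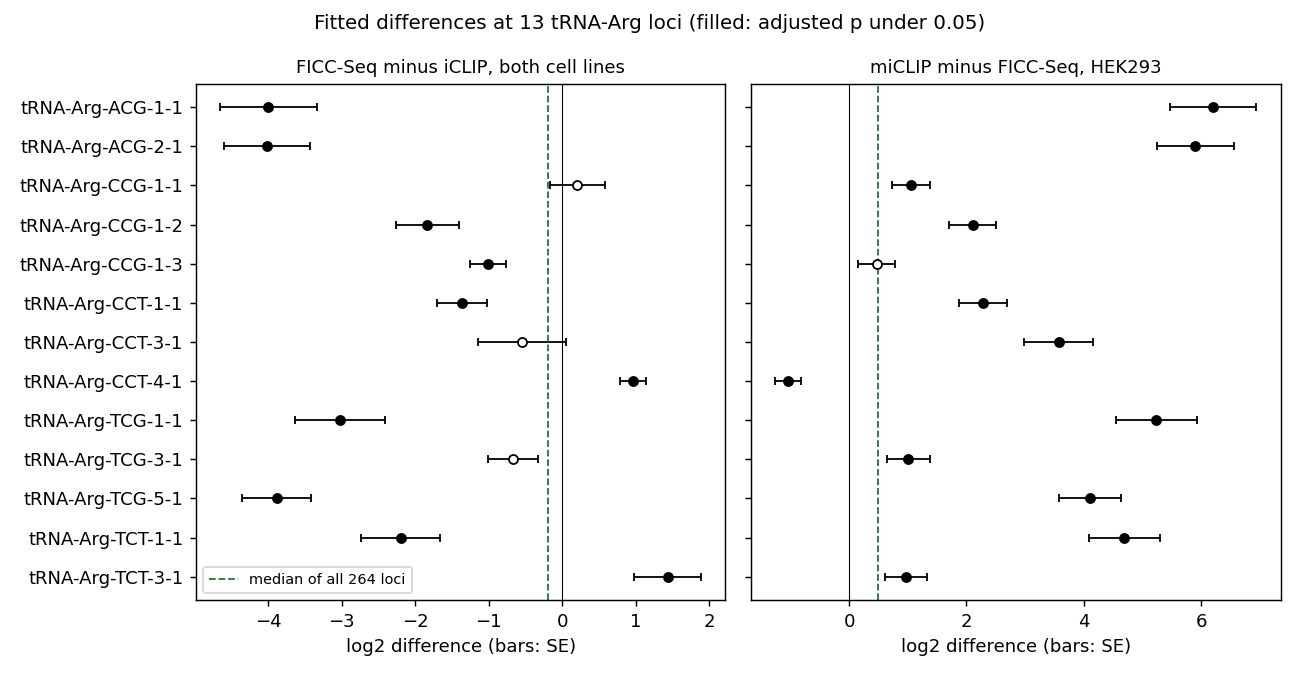
Fitted log2 differences (x axis) with their SE at the 13 tested tRNA-Arg loci (y axis), FICC-Seq minus iCLIP on the left and miCLIP minus FICC-Seq in HEK293 on the right; filled points passed an adjusted p under 0.05 and the dashed line is the median of all 264 loci. tRNA-Arg-CCT-4-1 is higher on the left at 0.97 and the only one below 0 on the right at −1.04.

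The second comparison set the miCLIP libraries against FICC-Seq of HEK293 cells. Nearly all arginine loci were higher in miCLIP, with tRNA-Arg-ACG, tRNA-Arg-TCG-1-1 and tRNA-Arg-TCT-1-1 foremost, while tRNA-Arg-CCT-4-1 was lower. tRNA-Arg-CCT-4-1 differed by −1.04 ± 0.22 (SE; limma, adjusted p = 0.000288), with 9660 CPM in FICC-Seq and 3540 in miCLIP. tRNA-Arg-TCG-1-1 differed by 5.23 ± 0.69 (limma, adjusted p = 3.61e-06), with 132 and 4940 CPM, and tRNA-Arg-TCT-1-1 by 4.69 ± 0.60 (limma, adjusted p = 2.59e-06), with 147 and 3190 CPM. tRNA-Arg-TCG-5-1 differed by 4.11. For tRNA-Arg-ACG-1-1 the fitted value was 6.2, against 1 count in the 3 FICC-Seq libraries.

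Of the 13 loci, 11 passed as higher and 1 as lower, and tRNA-Arg-CCG-1-3 at 0.47 did not pass. tRNA-Arg-CCT-3-1 and tRNA-Arg-ACG-2-1 had passed the filter on low counts only through the miCLIP libraries, in which they were higher, so their calls carry no weight. Of the 11 loci that passed without miCLIP, 9 were called higher and 1 lower. Of all loci tested 46.6% passed as higher and 31.8% as lower. The median was 2.28 for the arginine loci and 0.496 for all loci. Among the 5 isoacceptors 4 passed as higher: tRNA-Arg-ACG at 5.99, tRNA-Arg-TCG at 2.5, tRNA-Arg-TCT at 2.14 and tRNA-Arg-CCG at 0.74. The tRNA-Arg-ACG value rests on 4 counts in HEK293 FICC-Seq and depends on the voom offset, and no FICC-Seq library reached the level of the filter. tRNA-Arg-CCT at −0.31 ± 0.22 (limma, adjusted p = 0.199) did not pass. Of the 80 features 33.8% passed as higher and 43.8% as lower. Without miCLIP replicate 2, 11 loci were still tested, of which 6 passed as higher, and the calls of tRNA-Arg-CCG-1-1, tRNA-Arg-TCG-3-1 and tRNA-Arg-TCT-3-1 were lost. The miCLIP side then held 1 library, assumed to vary like the other groups, and the value of −0.57 for tRNA-Arg-CCT (limma, adjusted p = 0.028) rests on that assumption. The call of tRNA-Arg-CCG (limma, adjusted p = 0.0416) was lost without voom weights and when any of 7 libraries was left out: FICC-Seq HEK293 replicates 1 and 2, FICC-Seq HAP1 replicate 3, iCLIP HEK293 replicate 3, iCLIP HAP1 replicates 2 and 3, and miCLIP replicate 2. Its adjusted p in limma was then 0.0649 to 0.337. The calls of tRNA-Arg-TCG-3-1 and tRNA-Arg-TCT-3-1 were lost in 12 and 13 of 23 alternatives, and that of tRNA-Arg-CCG-1-1 in 4. The 2 sets of libraries differed in the enzyme and its amount, antibody and 5FU together, which cannot be told apart.

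The third comparison was between the cell lines in FICC-Seq. In the main limma fit, which took the libraries as independent, no arginine locus passed as higher or lower in HAP1 cells. In that fit 2 of 13 had an unadjusted p under 0.05. tRNA-Arg-CCG-1-2 held 12, 22 and 16 counts in HEK293 and 2, 19 and 5 in the deeper HAP1 libraries, a difference of −1.78 ± 0.58 (SE; limma, adjusted p = 0.0505). tRNA-Arg-TCG-5-1 differed by −2.05 ± 0.77 (limma, adjusted p = 0.0886). Replicates of the same number deviated together between the lines, and with the replicate number as a block tRNA-Arg-CCG-1-2 passed, at −1.73 (limma, adjusted p = 0.0415). Without HAP1 replicate 2 both loci passed, at −2.67 and −2.8, and so did tRNA-Arg-CCG-1-2 without HEK293 replicate 1 and tRNA-Arg-TCG-5-1 without HEK293 replicate 3. Of all loci tested 6.44% passed as higher and 6.06% as lower in HAP1. None of the 5 isoacceptors passed in limma, with 0 at an unadjusted p under 0.05, and of the 80 features 1.25% passed as higher and 2.5% as lower. Without voom weights the count was also 0 at both levels.

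Within the tRNA, most FICC-Seq counts of arginine tRNAs lay at positions 53 and 54, the stop for U54. The share was 73.8% ± 9.13 (SD, n = 3) in HEK293 and 76.3% ± 5.28 in HAP1 cells. In iCLIP it was 16.8% ± 7.71 and 18.9% ± 10.5, and in miCLIP 47.2% ± 4.72 (SD, n = 2). All other tRNAs together had 70.5% ± 5.28 and 65.4% ± 3.64 there in FICC-Seq of the 2 lines. Their iCLIP shares were 20.1% ± 7.44 and 21.9% ± 7.77, and the miCLIP share was 45.3% ± 3.1. tRNA-Arg-CCG had 86.4%, 73.4% and 81.2% in HEK293 and 86.0%, 69.6% and 90.8% in HAP1 FICC-Seq, against 3.92% to 32.7% in iCLIP. tRNA-Arg-CCT had 57.7% to 82.2% against 8.33% to 33.3%, and tRNA-Arg-TCG 73.3% ± 8.13 and 69.4% ± 2.96 (SD, n = 3) in HEK293 and HAP1 against 8.51% to 28.0%. In these 3 isoacceptors no FICC-Seq library overlapped an iCLIP library. The tRNA-Arg-TCG shares rest mostly on tRNA-Arg-TCG-3-1, with 76.4% of 258 counts at 53 and 54 over the FICC-Seq libraries. tRNA-Arg-TCG-5-1 had 61.5% of 26 counts there. tRNA-Arg-TCG-1-1 had only 33.3% of 24, and its highest position was 26, with 5 counts. tRNA-Arg-TCT had 51.1% to 100% in FICC-Seq, and in iCLIP 0% to 81.8% from at most 11 counts per library, so these overlapped.

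The difference between the methods was tested by exact permutation of the method labels within cell lines, two-sided, for the 35 anticodons with at least 5 counts in every library. By exact permutation it was 64.2 percentage points for tRNA-Arg-CCG, 57.03 for tRNA-Arg-CCT and 55.67 for tRNA-Arg-TCG, each with p = 0.005, the smallest that the 400 labelings can give, and an adjusted p of 0.00565. For tRNA-Arg-TCT it was 35.8 points (exact permutation p = 0.045, adjusted p = 0.045). All 4 arginine isoacceptors tested passed, but so did 100.0% of the 35 anticodons. With the replicate number as a block tRNA-Arg-TCT no longer passed (exact sign-flip test, adjusted p = 0.125), and its call was lost in 8 of the 12 fits without 1 library. These tests take the cell lines as independent. With same-numbered libraries of the 2 lines averaged, 20 labelings remain and no isoacceptor can pass (exact permutation test, adjusted p = 0.103 for the first 3). tRNA-Arg-ACG had too few counts: 4 of its 9 FICC-Seq counts lay at position 54 and none at 53, and 2 of its 38 iCLIP counts lay at either. In miCLIP, where it was well covered, 296 of 548 counts lay there, with an exact binomial interval of 49.7% to 58.2%.

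**Figure D4:**
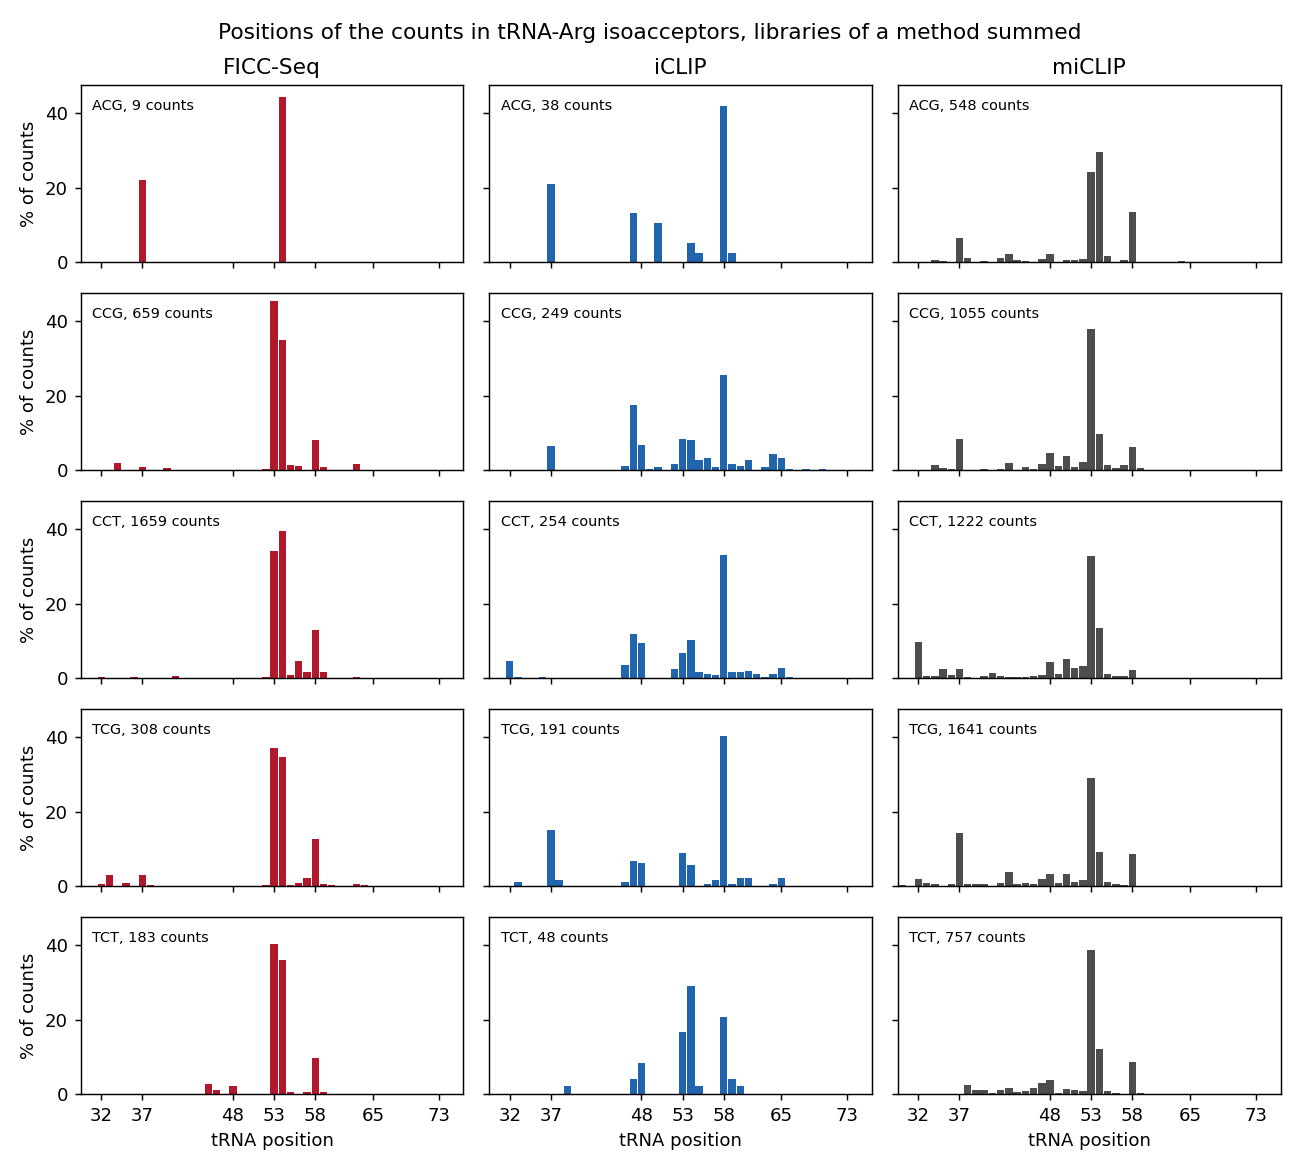
Share of the counts of each isoacceptor (rows; y axis, percent) by tRNA position (x axis), with the libraries of a method summed (columns) and the number of counts printed in each panel; for tRNA-Arg-TCT only positions from 38 are drawn, after the intron. FICC-Seq counts stand at 53 and 54, iCLIP counts of all but tRNA-Arg-TCT are highest at 58, and miCLIP counts show a further peak at 32 in tRNA-Arg-CCT and at 37 in the other isoacceptors without an intron.

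Against all other tRNAs in the same FICC-Seq library, tRNA-Arg-CCG had a higher share at 53 and 54, by 13.21 percentage points in the mean of 6 libraries (two-sided exact sign-flip test at the smallest p that its 64 sign patterns can give; adjusted p = 0.0456). The differences of 4.78 for tRNA-Arg-CCT, 3.3 for tRNA-Arg-TCG and 11.83 for tRNA-Arg-TCT did not pass (exact sign-flip test, adjusted p = 0.312, 0.312 and 0.168). Of the 35 anticodons 34.3% passed as higher and 34.3% as lower, against 1 of 4 arginine isoacceptors as higher and 0 as lower. Same-numbered FICC-Seq libraries of the 2 lines deviated together, and with these averaged the call was lost (exact sign-flip test over 3 replicate numbers, which cannot go below p = 0.25; adjusted p = 0.312). At position 53 alone the excess of tRNA-Arg-CCG was 0.14 points (exact sign-flip test, adjusted p = 1.0).

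The split of the stops between 53 and 54 was compared with that of other tRNAs, and no arginine isoacceptor passed. Position 53 held 46.3% ± 2.56 (SD, n = 3) of the counts at 53 and 54 in tRNA-Arg-CCT in HEK293 FICC-Seq and 46.2% ± 4.34 in HAP1 cells. Over the tRNAs other than arginine it held 67.4% ± 2.48 and 65.4% ± 1.7. tRNA-Arg-CCG had 53.4% ± 5.45 and 57.9% ± 2.5. Both were below the other tRNAs in 6 of 6 libraries, with differences of −20.04 points for tRNA-Arg-CCT and −10.39 for tRNA-Arg-CCG, but neither passed (exact sign-flip test at its smallest possible p; adjusted p = 0.0729). Of 35 anticodons 0.0% passed as lower. tRNA-Arg-TCG and tRNA-Arg-TCT had mean differences of −13.69 and −13.34 points (exact sign-flip test, adjusted p = 0.164 for each), but in HAP1 replicate 1 they held 81.2% and 77.3% at 53, above the 66.7% of the other tRNAs. The comparison was chosen after the positions had been seen. In tRNA-Arg-CCT-4-1, 471 FICC-Seq counts lay at 53 and 591 at 54, whereas in miCLIP 162 lay at 53 and 52 at 54. tRNA-Arg-CCT-1-1 had 83 and 52 in FICC-Seq, so the 2 loci of this isoacceptor differed in which position was higher.

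Position 58 took a larger share of all arginine counts in iCLIP. It held 35.7% ± 8.14 (SD, n = 3) of the arginine counts in HEK293 and 28.5% ± 10.1 in HAP1 iCLIP, 14.1% ± 4.8 and 9.85% ± 6.13 in FICC-Seq, and 7.49% ± 0.832 (SD, n = 2) in miCLIP. FICC-Seq minus iCLIP was −27.03 percentage points for tRNA-Arg-TCG, −18.95 for tRNA-Arg-CCT and −17.4 for tRNA-Arg-CCG (exact permutation test as above, p = 0.005, adjusted p = 0.0159 for each). tRNA-Arg-TCT at −10.57 did not pass (exact permutation p = 0.16, adjusted p = 0.233). Of the 35 anticodons 37.1% passed as lower, against 3 of 4 arginine isoacceptors. With the replicate block none of the 4 passed (exact sign-flip test, adjusted p = 0.0729 for the 3). With the lines averaged none could pass either (exact permutation test, adjusted p = 0.184). Without FICC-Seq HEK293 replicate 2 only tRNA-Arg-TCG passed, and tRNA-Arg-CCT was lost also without HEK293 replicate 1 or 3. All positions share 1 total, so these shares fall where that at 53 and 54 rises. Pooled over libraries, HEK293 FICC-Seq held 929 counts at 53 and 54 and 171 at 58, of 1248. HEK293 iCLIP held 65 and 152 of 411. In HAP1 these were 1186 and 153 of 1570 in FICC-Seq, and 71 and 99 of 369 in iCLIP. Of the counts outside 53 and 54, the part at 58 was thus not smaller in FICC-Seq, which was not tested.

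Among the loci of tRNA-Arg-TCG, the iCLIP stops at 58 were concentrated on 1. Over all arginine loci they were not, with 54 in tRNA-Arg-CCT-4-1 and 38 in tRNA-Arg-CCG-1-3. Of the 70 iCLIP counts of tRNA-Arg-TCG-5-1, 53 lay at position 58, or 75.7%. In tRNA-Arg-TCG-3-1 it was 23 of 84, and in tRNA-Arg-TCG-1-1 only 1 of 37. This locus instead had 21 of its 37 iCLIP counts at position 37, the base after the anticodon, and none of those of tRNA-Arg-TCG-5-1 lay there. In miCLIP tRNA-Arg-TCG-1-1 had 148 of 710 counts at 37, its highest position, and 125 at 53.

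**Figure D5:**
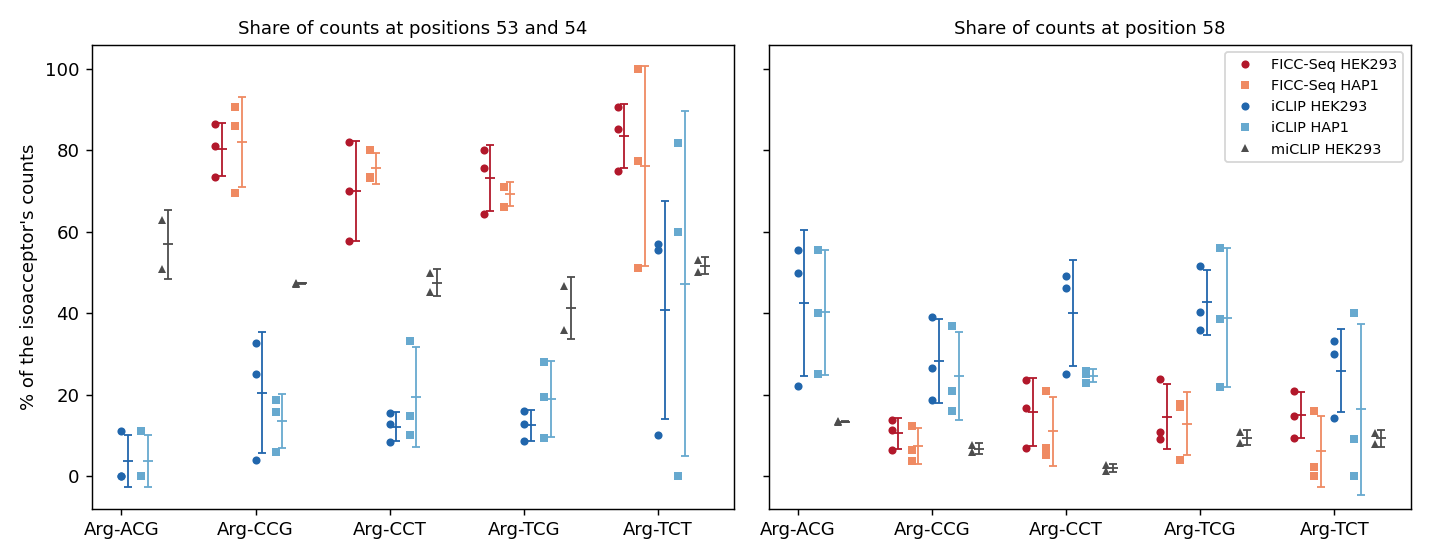
Share of the counts of each isoacceptor (y axis, percent) at positions 53 and 54 (left) and at 58 (right), with 1 point per library and bars for the mean and SD of each group; tRNA-Arg-ACG has too few FICC-Seq counts to be drawn. At 53 and 54 FICC-Seq lies above iCLIP without overlap for tRNA-Arg-CCG, tRNA-Arg-CCT and tRNA-Arg-TCG, with miCLIP between, and at 58 miCLIP has the lowest shares for tRNA-Arg-CCT, 1.29% and 2.63%.

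Stops elsewhere also differed between the methods in their mean or pooled shares. In the anticodon loop, positions 32 to 38, lay 13.7% ± 5.07 (SD, n = 2) of the miCLIP counts of the 4 isoacceptors without an intron. In iCLIP it was 9.25% ± 1.1 (SD, n = 3) in HEK293 and 10.1% ± 5.91 in HAP1, and in FICC-Seq 1.75% ± 2.28 and 2.55% ± 3.63. Single iCLIP libraries ran from 5.26% to 16.7%. They overlapped FICC-Seq, which reached 6.7%, and miCLIP, with 10.1% and 17.2%. The position within the loop differed between loci. In miCLIP tRNA-Arg-CCT-1-1 had 77 of 407 counts at position 32 and 11 at 37, and tRNA-Arg-CCT-3-1 had 30 of 307 and 5, but tRNA-Arg-CCT-4-1, the third locus of this isoacceptor, had 13 of 508 and 16. tRNA-Arg-CCG-1-1 had 0 at 32 and 48 of 345 at 37, and tRNA-Arg-TCG-3-1 had 14 and 54 of 393. These values are a description, with no test. In FICC-Seq replicate 2 of either cell line held most of the anticodon loop counts: 4.32% in HEK293 and 6.7% in HAP1, against at most 0.951% in the other 4 libraries.

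The variable region, positions 44 to 48, held 65 of 411 arginine counts in HEK293 iCLIP and 100 of 369 in HAP1 iCLIP, but 0 of 1248 and 14 of 1570 in FICC-Seq. These 14 all lay in HAP1 replicate 2, 11 of them in tRNA-Arg-TCT. In miCLIP the variable region held 377 of 5223. From 59 to 73, on the 3′ side of the T-loop and in the acceptor stem, lay 13.1% and 8.13% of the iCLIP counts of the 2 lines, 2.16% and 2.42% of those of FICC-Seq and 0.613% of those of miCLIP. These shares were pooled over libraries and are given as a description.

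Across all 14 libraries, the anticodons whose log2 CPM followed the arginine isoacceptors most closely were tRNA-Thr-TGT for tRNA-Arg-ACG (Pearson r = 0.966), tRNA-Asp-GTC for tRNA-Arg-CCT (r = 0.954), tRNA-Val-CAC for tRNA-Arg-TCG (r = 0.92), tRNA-Ala-AGC for tRNA-Arg-TCT (r = 0.872) and tRNA-Phe-GAA for tRNA-Arg-CCG (r = 0.823). Each was the highest of 43 anticodons compared. The libraries fall into 3 methods of unequal depth, which all points share, so these values describe likeness between methods and are given without a test.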

How the data were processed

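FICC-Seq, iCLIP and miCLIP of TRMT2A were analysed in 14 libraries. The deposited values are whole numbers of cDNAs per position with a sign for the strand, which the authors made on the iCount web server. Random barcodes served to discard PCR duplicates, reads were mapped to hg19 with bowtie (up to 2 mismatches), and reads with 1 best place were kept. No filter on the false discovery rate had been applied, and other values from the authors' comparisons were not used.

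Counts without sign were summed on the strand of each locus, from 100 nt 5′ to 25 nt 3′ of its clusters. tRNA positions were read from GRCh37, and a T-arm was found in 234 of 248 tRNA loci. The planned quasi-likelihood count test was not run. In its place limma 3.58.1 (R 4.3.3) was used on voom values of the counts without sign, with TMM scaling and Benjamini-Hochberg adjustment. All 14 libraries entered 1 fit. Loci needed the equivalent of 10 counts in a library of median depth in at least 2 libraries, and 15 counts over all. Position shares were tested by exact permutation of libraries (scipy 1.17.1, Python 3.11.15), adjusted over 35 anticodons. Binomial intervals are exact, at 95%.

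Replicate numbers were used as a block in an alternative fit. Deviations from the group means correlated at 0.369, 0.66 and 0.352 between same-numbered FICC-Seq libraries of the 2 cell lines. Between FICC-Seq and iCLIP the values lay between −0.0679 and 0.253. The main fits and tests took same-numbered libraries of the 2 lines as independent. In limma the block was 1 factor over all libraries, so it also joined same-numbered iCLIP and miCLIP libraries with those of FICC-Seq. The labels give FICC-Seq HEK293 replicates 1 and 3 the same barcode, but their counts over 195 tRNA loci differed beyond sampling noise (chi-square per degree of freedom 2.25), as did those of every replicate pair.

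On simulated data for FICC-Seq against iCLIP with 244 loci in the fit, 96.7% of 4-fold changes were recovered and 3.33% of 60 calls were false. The members, named loci and tests were chosen with earlier results of these data known. Every arginine locus was named, and for each isoacceptor the 1 anticodon most like it.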

Additional observations from a re-analysis of the deposited data

How the results depend on the processing

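Depth limited these results, as iCLIP libraries held 81 to 172 arginine counts and the tRNA-Arg-ACG loci 9 counts in FICC-Seq. Of 1076 recomputed values of single loci and isoacceptors, 950 kept their direction and side of the threshold, 76 were no longer called, 19 became called and 31 turned sign, none of them called before or after. The cause was not tested where none is given. The value of tRNA-Arg-TCT in FICC-Seq against iCLIP, near 0, became 0.36 with library totals, 0.012 with the replicate block, 0.0046 without voom weights (an alternative chosen after seeing the data), 0.62 without single-count positions and 0.061 after correction for barcode collisions. That of tRNA-Arg-CCT in miCLIP against FICC-Seq became 0.22 with scaling to the tRNA sum, 0.13 with only the libraries compared, 0.018 without single-count positions and 0.12 after collision correction. Leaving out a replicate gave −0.13 to 0.20 for tRNA-Arg-TCT, −0.57 to 0.11 for tRNA-Arg-CCT, and −0.18 to 0.28 for tRNA-Arg-CCG-1-1 in FICC-Seq against iCLIP. With library totals tRNA-Arg-CCT-3-1 was at 0.22 and tRNA-Arg-TCG-3-1 at 0.024 in FICC-Seq against iCLIP.

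Between cell lines 1 locus was called lower in HAP1, in place of 0, with median-of-ratios size factors, library totals, tRNA-sum scaling and the replicate block, and between 0 and 2 when a replicate was left out. Leaving out a replicate gave 1 or 2 loci called higher in FICC-Seq than iCLIP, and 6 to 11 called higher in miCLIP than FICC-Seq, with 0 or 1 isoacceptors lower. The share of counts at 53 and 54 against other tRNAs called 0 isoacceptors in place of 1 with position 53 alone, with the FICC-Seq peak of the other cell line as position 53, and with the mean over loci; without any 1 replicate it was also 0, as 5 libraries cannot go below an exact p of 0.0625. With position 53 alone the difference was −11.56 points for tRNA-Arg-CCT, −7.58 for tRNA-Arg-TCG and −2.02 for tRNA-Arg-TCT. Placed by the peak, it was −21.08, −18.79 and −11.81, since the window moved to 54 and 55 where 54 was the highest position. As a mean over loci it was −1.45 for tRNA-Arg-TCG. With same-numbered libraries of the 2 cell lines averaged, an alternative chosen after seeing the data, 0 isoacceptors were called for the share at 53 and 54, at 58, or against other tRNAs, since the smallest p it allows is 0.1 or 0.25. For position 58 the replicate block left 0 of 3 calls, and leaving out a replicate 1 to 3. The block changed the calls given in the report and otherwise lost tRNA-Arg-TCG-3-1 and tRNA-Arg-TCT-3-1 as higher in miCLIP. Without miCLIP replicate 1 or 2, the remaining library was assumed to vary like the other groups. Same-numbered FICC-Seq and miCLIP libraries correlated at −0.0185 and −0.0999. The planned negative binomial Wald test was not run, only its size factors.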
